A study of Homo sapiens with 4 samples.

Results

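The genes that encode the proteins of the mitochondrial ribosome were compared between OCI-AML3 cells transfected with sgNPM1A and with a control guide. Members were the protein-coding rows whose Ensembl identifier maps to a symbol made of MRPL or MRPS, a number and, for some, a letter from A to C. The rule found 78 genes among 58037 rows of the count table, of which 19601 were protein-coding, and all 78 passed the filter on low counts. By the role of their product, 51 belong to the large subunit and 26 to the small subunit. MRPS30 and MRPS18A carry small subunit names but are large subunit proteins, and MRPS36 belongs to neither subunit, since its product is now known as KGD4, a part of the 2-oxoglutarate dehydrogenase complex.

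OCI-AML3 is an established acute myeloid leukemia line that, by the study's description, carries heterozygous NPM1 and DNMT3A mutations and a homozygous NRAS mutation, so both groups share these alleles. One group (labelled sgNeg, here sgRNA Ctrl) received a control guide and the other (sgNPM1A) a guide directed at mutant NPM1, and RNA was sequenced 72 hours (day 3) after transfection, with 2 libraries per group. The labels give alpha-MEM as the growth medium, while the study's methods give an RPMI medium for this line, both with fetal bovine serum. The study calls the libraries of a group biological replicates, and the sources used here do not describe further how they were kept apart. The libraries held 25069484 and 25587774 counts (sgRNA Ctrl) and 28276391 and 28209174 counts (sgNPM1A).

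Mitochondria keep a ribosome of their own, which translates the few mRNAs of the mitochondrial genome into subunits of the respiratory chain and ATP synthase. Its RNAs are transcribed inside the organelle, but every one of its proteins is encoded in the nucleus, made in the cytosol and imported. Many of these proteins descend from bacterial ribosomal proteins, and the rest were added during the evolution of mitochondria. Promoters of such genes are known to carry binding motifs of YY1, of ETS factors such as GABP, and of NRF1, regulators of nuclear genes for mitochondrial proteins.

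The letters of these motifs were searched on both strands of the RefSeq promoter sequences (GRCh38.p14, 250 bases before to 50 after the gene start), which were at hand for 70 of the 78 members and for 15843 protein-coding genes. The YY1 letters, 10 bases shown in capitals in the windows printed here, were present in 13 members (18.6%), against 1.93% of all promoters and 2.9% of those of tested genes (10061 promoters). In 10 of those 13 the letters stood on the transcribed strand after the start, at an offset of 6 to 35 bases, and the same held for 212 of the 306 promoters with the letters in all (69.3%). The following 30-base windows of 4 members show them in capitals, 5′ to 3′ on the gene's strand, and were chosen because the paralogues MRPS18A and MRPS18B and 2 further members of different subunits hold the same letters.
MRPS30, chr5:44808950-44808979, plus strand: atcgcgggcaAAGATGGCGGcggccaggtg
MRPS10, chr6:42217833-42217862, minus strand: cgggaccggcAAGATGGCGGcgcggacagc
MRPS18A, chr6:43687763-43687792, minus strand: taggtttttgAAGATGGCGGccctcaaggc
MRPS18B, chr6:30617853-30617882, plus strand: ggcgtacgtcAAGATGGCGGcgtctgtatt

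The ETS letters CCGGAAGT were found in 11 members (15.7%, against 6.19% of all promoters and 8.93% of those of tested genes) and the NRF1 motif, of which 1 match is shown in capitals below for MRPS9, in 8 (11.4%, against 8.58% and 11.8%). The E-box CACGTG, the core site of MYC, was found in 7 members (10%, against 8.88% and 10.3%), CCAAT in 20 (28.6%, against 36.4% in both) and TATAAA in 3 (4.29%, against 9.63% and 5.68%). Against the promoters of tested genes the NRF1 and E-box shares of the members were thus no higher. Of the members called higher below, MRPL51 held the ETS letters and MRPS9 the NRF1 motif, both on the opposite strand, in the 150 bases before the start, and these are printed with the match in capitals because both genes are described again with their values.
MRPL51, chr12:6493263-6493412, minus strand: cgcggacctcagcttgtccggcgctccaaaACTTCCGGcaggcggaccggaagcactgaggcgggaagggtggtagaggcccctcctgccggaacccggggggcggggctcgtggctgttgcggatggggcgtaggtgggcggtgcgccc
MRPS9, chr2:105037919-105038068, plus strand: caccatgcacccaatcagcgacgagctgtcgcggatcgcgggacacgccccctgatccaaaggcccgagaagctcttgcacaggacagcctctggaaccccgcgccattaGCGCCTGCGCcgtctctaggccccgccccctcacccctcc
A match is a run of letters and no measure of binding.

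The targeted gene was measured first. NPM1, a nucleolar chaperone, stood at 1352 ± 47.1 CPM (reads scaled to a common library size, SD, n = 2) in sgRNA Ctrl and 1161 ± 40.7 in sgNPM1A. The difference was -0.22 on the log2 scale (edgeR quasi-likelihood test with Benjamini-Hochberg adjustment, adjusted p = 0.036). With limma on quantile-normalized values it was -0.417 (adjusted p = 0.00109) and past the fold threshold, and without sgNPM1A replicate 2 it was -0.182. In edgeR the adjusted p was 0.156 with a replicate block and 0.0509 over protein-coding rows only. A block with crossed numbers, chosen after seeing the data, gave an edgeR adjusted p of 1.19e-05. The counts pool the wild-type and mutant alleles, so they do not check the edit. All 9 markers of a myeloid leukemia line were detected, and 4 of 8 markers of other cells (CD3E, MS4A1, HBB and EPCAM) had no count in any library, while the sum over all 8 stayed between 3.301 and 4.209 CPM. The summed myeloid markers moved with the group, from 1182 and 1193 CPM in sgRNA Ctrl to 3748 and 4445 CPM in sgNPM1A, most of it in LYZ (lysozyme, 270.6 and 215.1 CPM against 2643 and 3367 CPM). Others of the list went the other way, namely HOXA9 (56.3 and 62.2 CPM against 19.2 and 17.5 CPM) and MEIS1 (38.0 and 37.2 CPM against 8.43 and 5.26 CPM), while CD33 stayed between 81.4 and 90.1 CPM and CEBPA between 270 and 285.2 CPM. Their part in the results on the mitochondrial ribosome was not tested. In bulk RNA, a change in the number of cells of one kind and a change in RNA per cell cannot be told apart.

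Of the 78 members, 67 had a fold change above 0 with sgNPM1A, and for 57 of the 78 the difference did not pass the test. A gene was called where its adjusted p was under 0.05 and its level in one group exceeded that in the other by at least 25%, the fold threshold of the study. By that rule 9 members were higher and 0 lower, against 20.8% of the 15718 tested genes called in all, 10.5% higher and 10.3% lower. The share of members called (11.5%) was thus below the background of both directions pooled, close to it in the upward direction, and empty in the downward direction. By adjusted p alone, 21 members were higher and 0 lower (background 12.9% higher and 13.1% lower), and at an unadjusted p under 0.05 the count was 32. DESeq2 likewise put 15 members above at an adjusted p under 0.05 and 0 below. With the fold threshold it called 8 higher and 0 lower, against 1263 higher and 1244 lower of all 15718 tested genes. Single libraries decided much of these counts. Without sgRNA Ctrl replicate 1 the log2 fold changes of MRPL2, MRPL34, MRPL51, MRPL58 and MRPS5 fell under the fold threshold (0.256 to 0.320). The members' median was 0.128 without that library and 0.172 without sgRNA Ctrl replicate 2. Fewer members passed the adjusted p alone in the fits with a lone sgNPM1A library.

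The median log2 fold change of the members was 0.13 (quartiles 0.07 and 0.26, range -0.16 to 0.70), beside 0.00 over all tested genes (quartiles -0.21 and 0.22). The fold change lay below 0 in 11 members, and the background was 50% above 0. Protein-coding genes within the members' range of CPM (10940 genes) had a median of -0.02, and 23.7% of them were called. In 56 members both sgNPM1A libraries stood above both sgRNA Ctrl libraries, in 4 both stood below, and in 18 the groups overlapped, against a background of 31.4% above and 31.7% below (63.1% in either direction). With 2 libraries per group an exact permutation test of a single gene cannot give a two-sided p below 0.333.

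**Figure D1:**
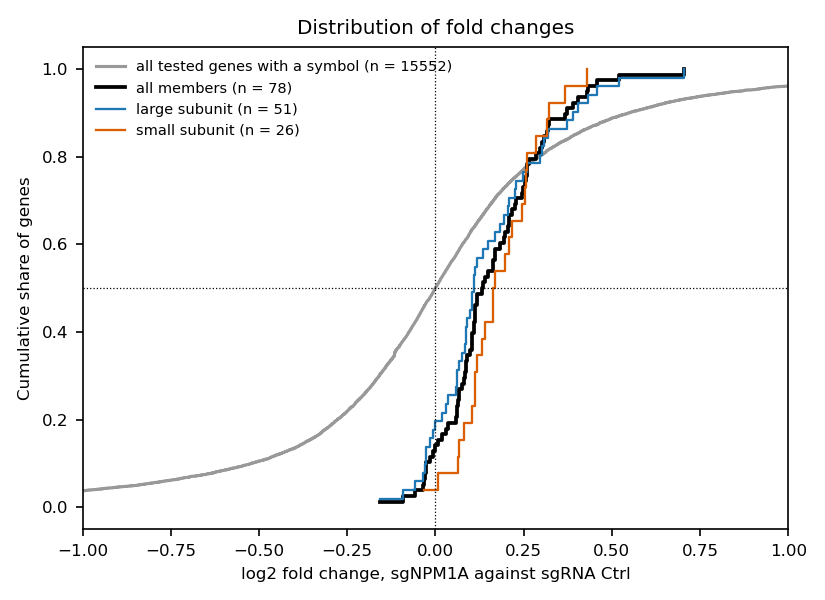
Cumulative share of genes (vertical axis, 0 to 1) against the log2 fold change of sgNPM1A over sgRNA Ctrl (horizontal axis, cut at -1 and 1) for all tested genes with a symbol (grey), all 78 members (black), 51 large subunit genes (blue) and 26 small subunit genes (orange). The members' curves cross the middle of the vertical axis to the right of 0 (medians 0.13, 0.11 and 0.17) and are steeper than the curve of all genes.

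Library by library, the members' CPM summed to 4854.5 and 5098.4 in sgRNA Ctrl and to 5647.4 and 5579.3 in sgNPM1A. These sums are 4976 ± 172.5 and 5613 ± 48.15 (SD, n = 2), and the groups did not overlap. The members took 0.492% and 0.516% of all counts in sgRNA Ctrl and 0.557% and 0.549% in sgNPM1A. Set against the mean of the sgRNA Ctrl libraries, the median member stood at -0.03 and 0.03 (log2) in those libraries and at 0.14 in each sgNPM1A library, while the median of all genes stayed between -0.001 and 0.006. The upward displacement of the typical member was thus larger than the distance between the control libraries.

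Of the large subunit genes 13.7% were called higher and of the small subunit genes 7.69%, beside 10.5% of all tested genes. By adjusted p alone the background was 12.9% higher. The large subunit summed to 3270 ± 128.6 CPM in sgRNA Ctrl and 3673 ± 36.27 in sgNPM1A, with 7 of 51 genes called higher, 13 past the adjusted p alone, and a median log2 fold change of 0.11. The small subunit summed to 1686 ± 43.56 and 1916 ± 12.09 CPM, with 2 of 26 called higher, 8 past the adjusted p alone, and a median of 0.17 (0.165). Fold changes above 0 were found in 41 large and 25 small subunit genes, and in 23 of 26 small subunit genes the sgNPM1A libraries lay above both controls, as they did in 32 of 51 large subunit genes. Over all tested genes, 50% had a fold change above 0, and in 31.4% both sgNPM1A libraries lay above. The difference between the subunits was not tested. Members with a bacterial counterpart (48 genes) included 7 called (14.6%) and had a median of 0.175. Those specific to mitochondria (29 genes) included 2 called (6.9%) and had a median of 0.104.

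**Figure D2:**
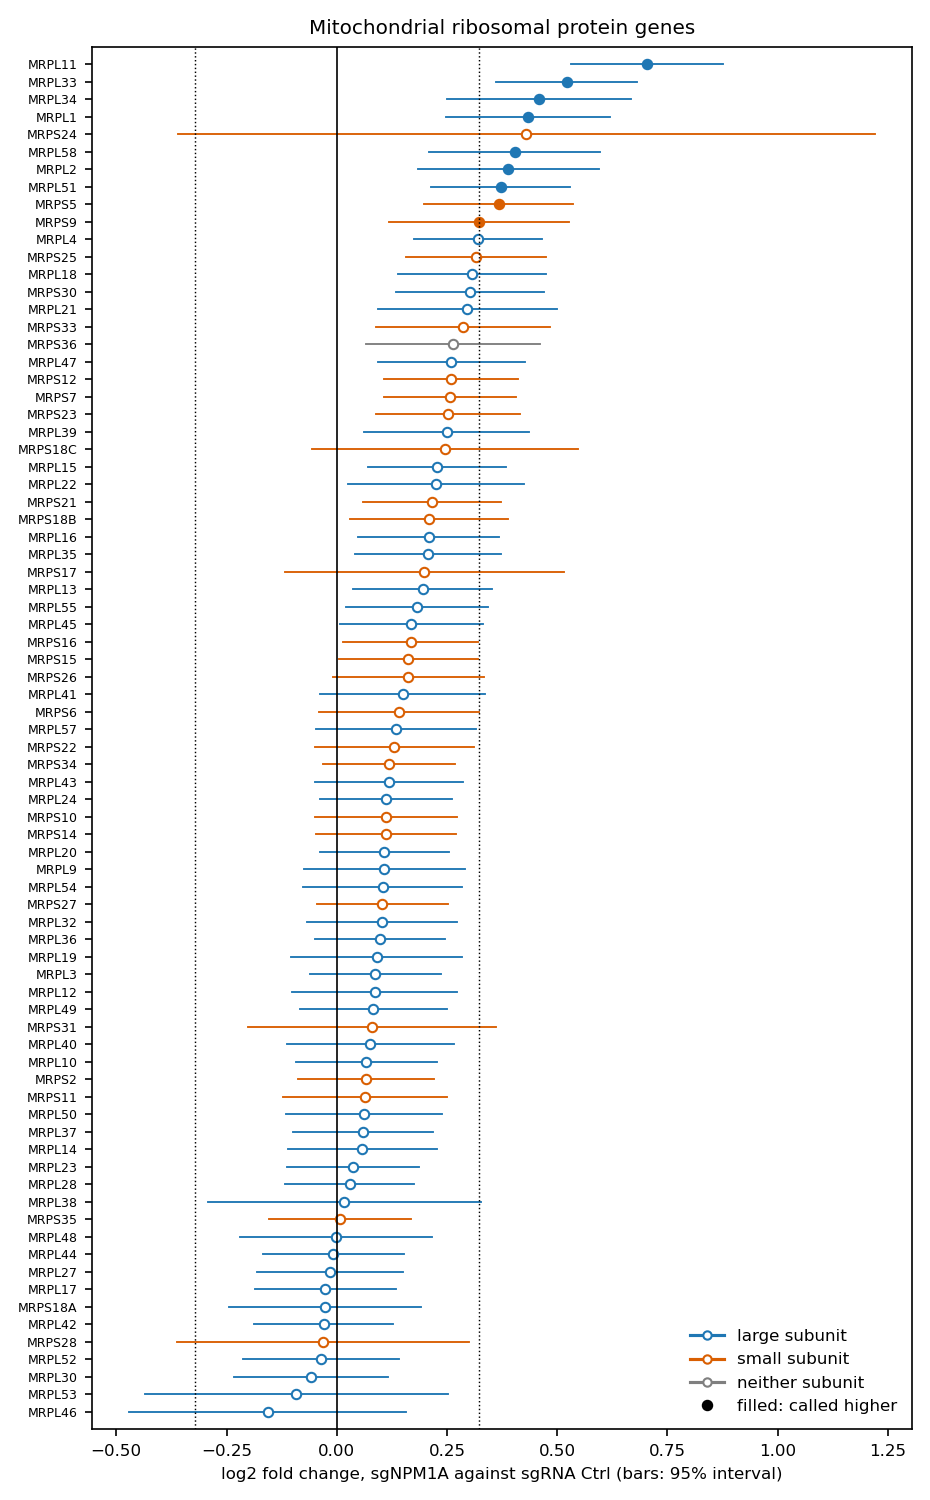
Log2 fold change of sgNPM1A over sgRNA Ctrl (horizontal axis) for each of the 78 members, ordered by size, with 95% intervals of the edgeR fit as bars, blue for the large subunit, orange for the small subunit and grey for MRPS36. Filled points are the 9 members called higher, and dotted lines mark the fold threshold (25%) either way. The intervals of 32 members lie above 0 and of 0 members below it. Over all 15718 tested genes, 5896 had an unadjusted p under 0.05 in either direction.

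The largest difference among members was that of MRPL11 (ENSG00000174547, chr11:66435075-66438848, GRCh38.p14), the counterpart of bacterial L11 at the base of the stalk where translation factors bind. It was measured at 63.93 and 70.50 CPM in the sgRNA Ctrl libraries and at 113.8 and 105.1 CPM in the sgNPM1A libraries. The groups lay apart by 0.70 on the log2 scale (SE 0.078, adjusted p = 6.24e-05). The other stalk proteins differed less. MRPL10, which anchors the stalk, had 59.8 and 62.43 CPM against 63.64 and 64.36 (log2 fold change 0.07, 95% interval -0.09 to 0.23, adjusted p = 0.553). MRPL12, the repeated stalk protein, had 34.03 and 36.95 CPM against 38.78 and 36.56 (0.09, -0.10 to 0.27, adjusted p = 0.506). The MRPL11 interval (0.53 to 0.88) shared no value with either, although the difference between these genes was not itself tested.

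MRPL33 (chr2:27771719-27779733), counterpart of bacterial L33, was at 63.77 and 68.92 CPM in sgRNA Ctrl and 95.97 and 94.50 CPM in sgNPM1A. Its log2 fold change of 0.52 (SE 0.073, adjusted p = 0.000331) was the next in size among the called members. MRPL34 (chr19:17292573-17306843), counterpart of bacterial L34, was at 43.16 and 52.86 CPM in sgRNA Ctrl and 66.01 and 65.98 CPM in sgNPM1A. The sgRNA Ctrl libraries differed from each other more than the sgNPM1A libraries, and the log2 fold change was 0.46 (SE 0.095, adjusted p = 0.00456). Without sgRNA Ctrl replicate 1 it fell to 0.319, just under the fold threshold.

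MRPL1 (chr4:77862830-77952785), whose bacterial counterpart forms the stalk on the exit side of the ribosome, was at 27.18 and 29.31 CPM against 38.82 and 37.46 CPM, a log2 fold change of 0.43 (SE 0.085, adjusted p = 0.00319). MRPL2 (chr6:43054029-43059863), a core protein near the peptidyl transferase center, was at 42.76 and 51.82 CPM against 62.32 and 61.55 CPM, with a log2 fold change of 0.39 (SE 0.094, adjusted p = 0.0105). Without sgRNA Ctrl replicate 1 the MRPL2 value was 0.256 and the call was lost. MRPL51 (chr12:6491886-6493262), a protein specific to the mitochondrial large subunit whose promoter is printed above, was at 94.22 and 101.3 CPM against 130.5 and 122.5 CPM (0.37, SE 0.072, adjusted p = 0.00295). Its call was lost without sgRNA Ctrl replicate 1 (log2 fold change 0.320) and without sgNPM1A replicate 1 (adjusted p = 0.0557).

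MRPL58 (chr17:75012670-75021261), also known as ICT1, is a peptidyl-tRNA hydrolase that became a built-in protein of the large subunit and can rescue stalled ribosomes. It was at 38.04 and 44.06 CPM in sgRNA Ctrl and 55.46 and 53.12 CPM in sgNPM1A, with no overlap. The log2 fold change was 0.40 (SE 0.088, adjusted p = 0.0063), and 0.300 without sgRNA Ctrl replicate 1, where it was not called.

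Of the small subunit, MRPS5 (chr2:95085369-95122003), counterpart of bacterial S5, which helps keep decoding accurate, was at 101.7 and 114.7 CPM in sgRNA Ctrl and 144.1 and 134.9 CPM in sgNPM1A. Its log2 fold change was 0.37 (SE 0.077, adjusted p = 0.00488), and the call was lost without sgRNA Ctrl replicate 1 (0.282) and without sgNPM1A replicate 1 (adjusted p = 0.0602). MRPS9 (chr2:105038069-105099960), counterpart of bacterial S9, which contacts the tRNA in the P site, was at 22.97 and 20.73 CPM against 26.98 and 27.66 CPM. It lay just inside the fold threshold (log2 fold change 0.322, SE 0.093, adjusted p = 0.0251) and was the least stable call, lost in 8 of 15 alternatives (a stricter fold threshold not counted), among them DESeq2 (adjusted p = 0.0616). An antisense gene overlaps 24% of the exon length of MRPS9, and reads of the pair cannot be told apart without strand. MRPL1, MRPL11 and MRPL33 were still called in all 15. Among the 15 is the rule with no fold threshold, under which no call can be lost. Also among them is a block with crossed numbers, chosen after seeing the data.

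**Figure D3:**
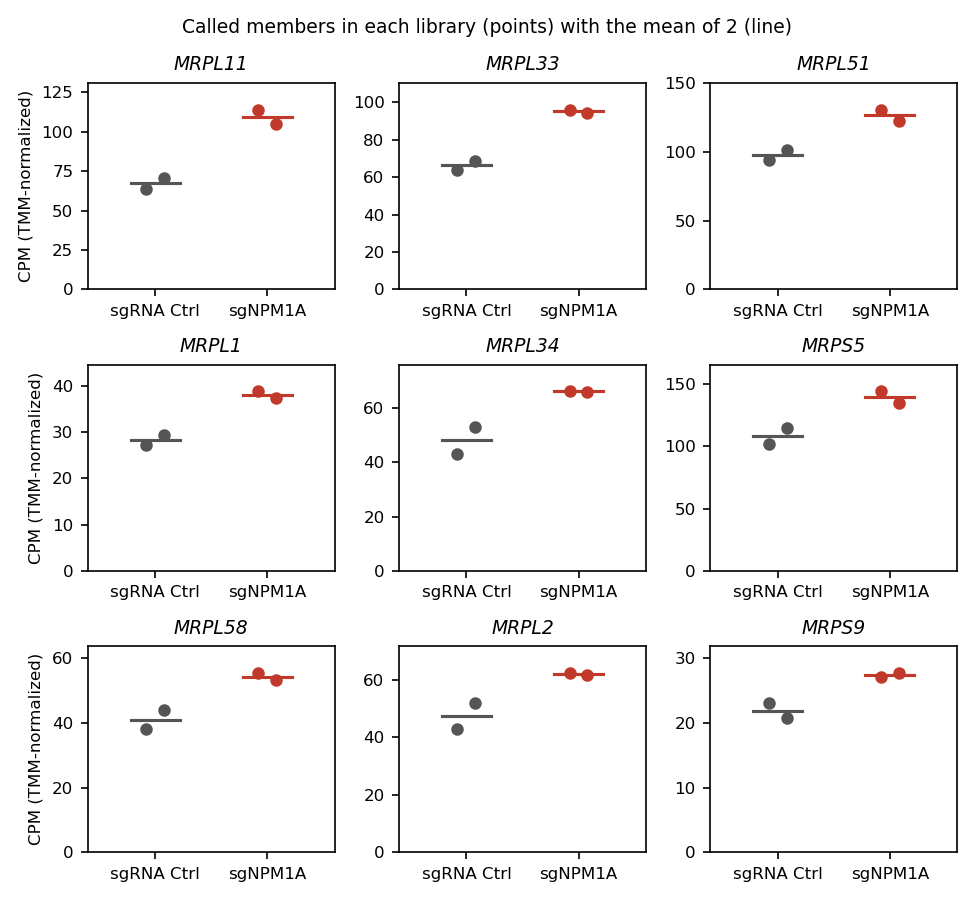
CPM with TMM normalization (vertical axes from 0, a scale for each gene) of the 9 members called higher, with a point for each library and a line at the mean of the 2 libraries of sgRNA Ctrl (grey) and of sgNPM1A (red). In every panel both sgNPM1A points lie above both sgRNA Ctrl points, by the widest margin for MRPL11 (63.93 and 70.50 against 113.8 and 105.1).

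A further 12 members passed the adjusted p but not the fold threshold, with log2 fold changes of 0.22 to 0.32, 6 of them in each subunit. The large subunit members were MRPL4, MRPL15, MRPL18, MRPL21, MRPL47 and MRPS30, and the small subunit members MRPS7, MRPS12, MRPS21, MRPS23, MRPS25 and MRPS33. MRPL4, just outside the fold threshold, was at 91.39 and 91.55 CPM in sgRNA Ctrl and 113.4 and 114.9 CPM in sgNPM1A (0.320, SE 0.066, adjusted p = 0.00451). Other genes cover 39.7% of its exon length. MRPL18, the counterpart of the bacterial protein that binds the 5S rRNA, was at 77.58 and 85.56 CPM against 103.9 and 97.93 CPM (0.31, adjusted p = 0.012). MRPS12, the counterpart of bacterial S12 in the decoding center, was at 71.44 and 72.32 CPM against 85.13 and 86.8 CPM (0.26, adjusted p = 0.0178). MRPS7, which starts assembly of the head of the small subunit in bacteria, was at 131.2 and 136.1 CPM against 153.9 and 165.4 CPM (0.26, adjusted p = 0.017). In all of these members the groups did not overlap, which their selection by adjusted p makes likely. The groups also did not overlap in 63.1% of all tested genes. MRPS36, the member that is no ribosomal protein, was at 20.26 and 20.66 CPM against 24.5 and 24.63 CPM (0.26), and its adjusted p of 0.05 did not pass.

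The 11 members with a fold change below 0 had adjusted p values of 0.467 to 0.993. The lowest value was that of MRPL46 (6.058 and 6.641 CPM against 5.884 and 5.51 CPM, log2 fold change -0.16, 95% interval -0.47 to 0.16). The member nearest to 0 was MRPL48, at 32.77 and 39.73 CPM in sgRNA Ctrl and 36.92 and 35.51 CPM in sgNPM1A, where the sgNPM1A libraries lay between the sgRNA Ctrl libraries (interval -0.22 to 0.22).

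The MRPS18 paralogues are 3 nuclear genes for counterparts of bacterial S18, of which MRPS18A occupies the large subunit and MRPS18B and MRPS18C the small subunit. MRPS18A was at 16.21 and 16.72 CPM in sgRNA Ctrl and 16 and 16.31 CPM in sgNPM1A (log2 fold change -0.03, 95% interval -0.25 to 0.19, adjusted p = 0.873). MRPS18B was at 90.44 and 105.6 CPM against 114.6 and 112 CPM (0.21, interval 0.03 to 0.39, adjusted p = 0.0836), and MRPS18C at 6.412 and 6.95 CPM against 8.395 and 7.455 CPM (0.25, adjusted p = 0.219). None of the paralogues passed the test, and the intervals of MRPS18A and MRPS18B overlap. The promoters of both hold the YY1 letters printed above, whose part in these values was not tested. Over the members with a promoter sequence, those with the YY1 letters had a median log2 fold change of 0.098 and 0 of 13 called, and those without them 0.141 and 8 of 57 called. With the ETS letters the median was 0.108 (0.141 without), with the NRF1 motif 0.116 (0.125 without), with the E-box 0.169 (0.119 without) and with CCAAT 0.180 (0.112 without). These splits are descriptions with no test.

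The levels of the members differed far more among themselves than between the groups. Per kilobase of the canonical transcript, the highest levels over all libraries were those of MRPS34 (221.3 CPM per kilobase), MRPL20 (172.8) and MRPL36 (160.8), and the lowest those of MRPS24 (0.962), MRPS17 (3.65) and MRPL19 (3.84), with a median of 45.88. The median per kilobase was 51.18 for the large subunit and 34.06 for the small subunit. MRPS34, a small subunit protein specific to mitochondria, had 203.1 and 220.3 CPM in sgRNA Ctrl and 234.8 and 225 CPM in sgNPM1A (log2 fold change 0.12, adjusted p = 0.231). MRPL20 had 114 and 118.8 CPM against 126.6 and 124.4 CPM (0.11, adjusted p = 0.264), and MRPL36 96.03 and 93.25 CPM against 102.2 and 100.3 CPM (0.10, adjusted p = 0.324). MRPS34, MRPL20 and MRPL36 thus did not pass the test. Next in level, MRPL41 (160.6 CPM per kilobase, adjusted p = 0.228) did not pass either, but MRPL33 (159 CPM per kilobase) was called higher. At the bottom, MRPS24, MRPS17 and MRPL19 did not pass. MRPS17 (5.822 and 6.332 CPM against 6.494 and 7.455) had an adjusted p of 0.351 and MRPL19 (30.02 and 28.22 CPM against 29.78 and 32.23) of 0.499. MRPS24 had 0.5901 and 0.5019 CPM against 0.8252 and 0.6483 CPM, with an interval from -0.36 to 1.22 (log2).

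**Figure D4:**
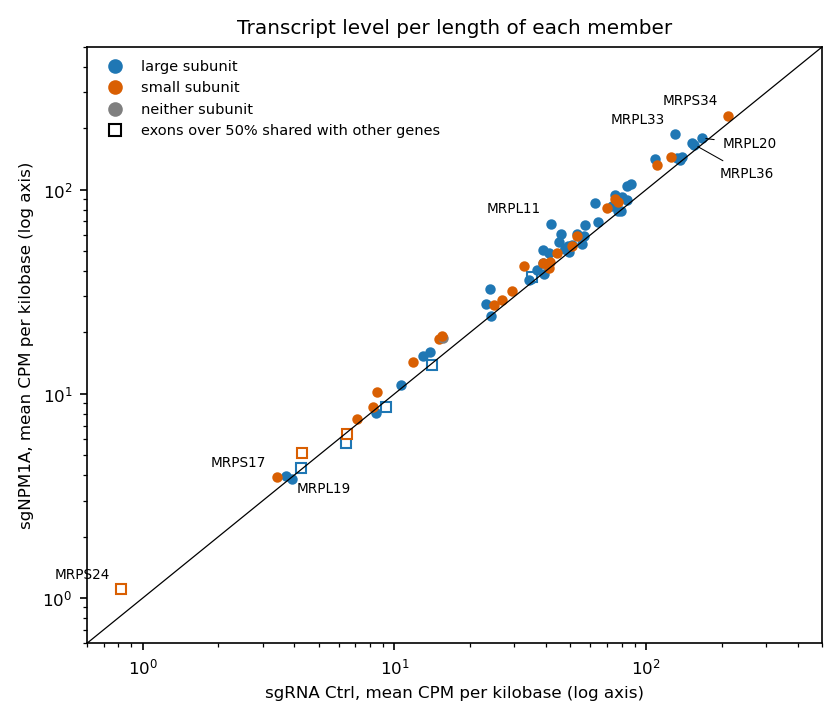
Mean CPM per kilobase of canonical transcript in sgNPM1A (vertical axis) against sgRNA Ctrl (horizontal axis), both log axes, for each of the 78 members, blue for the large subunit, orange for the small subunit and grey for MRPS36, with open squares for the 8 members that share over 50% of their exon length with other genes. Points lie close to the line of equal levels and mostly above it, from MRPS24 near 1 to MRPS34 above 200.

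The lowest levels were found in members with shared exons, but sharing did not always go with a low level. The 7 members with a mean under 10 CPM (MRPL38, MRPL46, MRPL53, MRPS17, MRPS18C, MRPS24 and MRPS28) all share over 25% of their exon length with other genes of the count table. MRPL53 lies for 99.2% of its exon length in exons of CCDC142, and MRPS24 for 90.9% in exons of the readthrough gene URGCP-MRPS24, which had no count in any library. How reads in shared exons were assigned is not given in the sources used here, so the levels of the 8 members that share over 50% (median 5.929 CPM) are uncertain. MRPL12 and MRPS18A, described above, are among these 8. The 18 members that share 10 to 50% had a median of 67.95 CPM, and among them MRPS34, the member with the highest level, shares 32.6%. The 52 members that share at most 10% had a median of 63.98 CPM. Of these 52, 8 were called higher, 47 had a fold change above 0 and their median was 0.17 (log2). Rows of 79 pseudogenes with member-like symbols held at most 14 counts in any library.

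Other genes that serve the mitochondrial ribosome were taken from lists by role. Over all tested genes 10.5% were called higher and 10.3% lower, and by adjusted p alone 12.9% were higher and 13.1% lower. Of 5 further proteins of the ribosome, 0 were called, and PTCD3 was at 121 and 130.2 CPM in sgRNA Ctrl and 145 and 143.6 CPM in sgNPM1A (log2 fold change 0.20, adjusted p = 0.0492). Of 30 assembly factors 1 was called higher (3.33%) and 0 lower (median 0.05). It was NDUFAB1, the mitochondrial acyl carrier protein, at 48.66 and 52.67 CPM against 65.37 and 64.03 CPM (0.35, adjusted p = 0.006). By adjusted p alone, the rRNA methyltransferase MRM2 was higher (0.27, adjusted p = 0.0117) and the helicase DHX30 lower (-0.22, adjusted p = 0.0251). Of 18 translation factors 2 were called higher and 0 lower (median 0.18), and that share of 11.1% is close to the background. One was MTRES1, a rescue factor, at 11.96 and 14.87 CPM against 19.09 and 18.44 (0.48, adjusted p = 0.0117). The other was GFM2, the factor that recycles the ribosome, at 21.09 and 17.26 CPM against 23.46 and 27.55 (0.41, adjusted p = 0.0254). A further 4 translation factors, LRPPRC, MTRFR, OXA1L and SLIRP, were higher by adjusted p alone.

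Of 20 genes of mitochondrial aminoacyl-tRNA synthesis, GATB alone was called (5%, higher, 0.44, adjusted p = 0.00184, list median 0.07). Of 20 tested genes of mitochondrial DNA expression FASTKD1 alone was called (5%, higher, 0.52, adjusted p = 0.00126, list median 0.10). The background was 10.5% called higher. Among RNAs of the mitochondrial genome itself, 0 of 13 mRNAs were called (1 at an unadjusted p under 0.05), their median was -0.04, and MT-CYB was lower by adjusted p alone (4126 and 3957 CPM against 3333 and 3505 CPM, -0.24, adjusted p = 0.0262). The ribosome's own RNAs, MT-RNR1 and MT-RNR2, had log2 fold changes of 0.05 (adjusted p = 0.687) and 0.18 (adjusted p = 0.093). These medians depended on the scaling, since with limma on quantile-normalized values the rRNA median turned from 0.114 to -0.038 and the mRNA median went to -0.088 with MT-ND6 called lower. Without sgNPM1A replicate 1 the mRNA median turned to 0.019. The fit holds no term that compares these RNAs with the members, so the difference between them was not tested.

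Among 9 tested regulators of mitochondrial biogenesis 0 were called, and 4 had an unadjusted p under 0.05, as did 5896 of 15718 tested genes. MYC was at 410.4 and 403.4 CPM in sgRNA Ctrl and 351.8 and 332.1 CPM in sgNPM1A (-0.25, adjusted p = 0.0159, under the fold threshold), while ESRRA (0.25, adjusted p = 0.0259) and the GABP subunit gene GABPB1 (0.29, adjusted p = 0.0179) were higher by adjusted p alone. NRF1 (-0.12, adjusted p = 0.404) and YY1 (-0.06, adjusted p = 0.571) did not pass. Of 14 S phase markers 3 were called lower (E2F8, UNG and CDC6, 21.4% against a background of 10.3% lower) and 0 higher (median -0.17). The part of the S phase markers in the members' values was not tested.

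The ribosome of the cytosol served as the nearest comparison. Of its 83 tested protein genes 2 were called higher and 0 lower (2.41%, against 10.5% higher and 10.3% lower over all tested genes). They were RPS27L (0.35, adjusted p = 0.00434) and RPL26L1 (0.35, adjusted p = 0.0109). The median log2 fold change of the 83 genes was 0.06, with 67 above 0 and 16 below. It turned to -0.043 with limma on quantile-normalized values, where RPL12 was called lower and the median of the mitochondrial members was 0.135. The groups of libraries overlapped in 71 of the 83 genes and in 18 of the 78 members, against 5798 of all 15718 tested genes. The cytosolic median also turned with the control library, to -0.05 without sgRNA Ctrl replicate 1 and 0.17 without sgRNA Ctrl replicate 2, whereas the median of the mitochondrial members was 0.13 and 0.17 in the same fits. The difference between the lists was not tested.

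**Figure D5:**
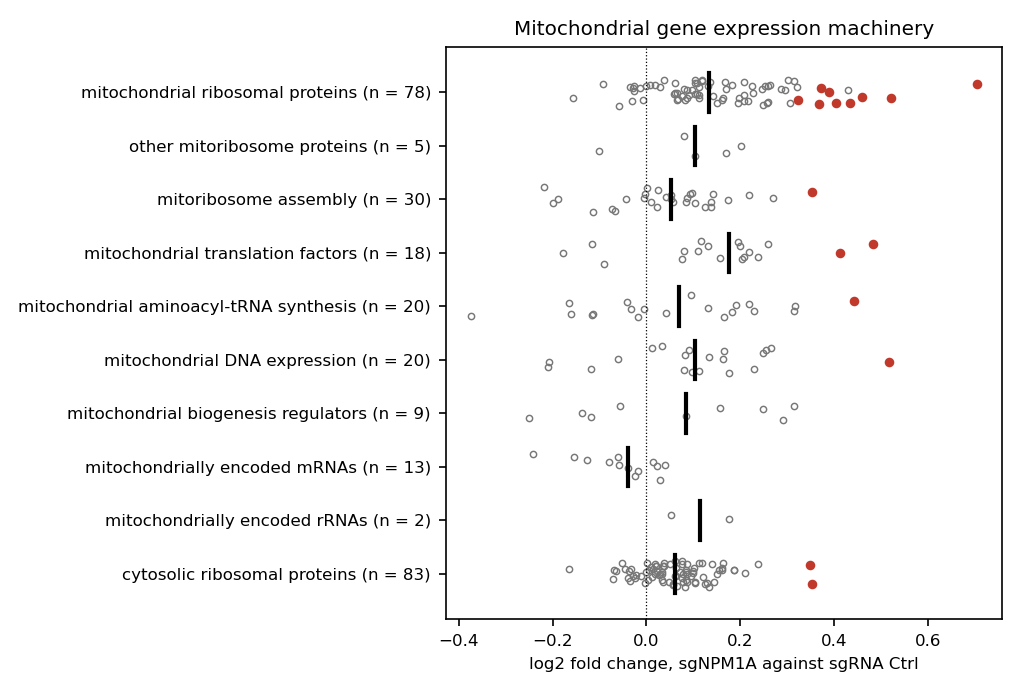
Log2 fold change of sgNPM1A over sgRNA Ctrl (horizontal axis) for each tested gene of the members and of 9 other lists (rows), with a black bar at the median of each list and red points for genes called by adjusted p and fold threshold together. The median bar of the members stands at 0.13, of the cytosolic ribosomal proteins at 0.06 (-0.043 on quantile-normalized values) and of the mitochondrially encoded mRNAs at -0.04 (0.019 without sgNPM1A replicate 1), and no red point lies below 0.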

How the data were processed

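RNA of 4 OCI-AML3 libraries was sequenced. Per the labels, the authors used STAR and hg38 and deposited whole-number counts per gene in 1 table with a column per library. The counting program, annotation release and strand setting are not given in the sources used here. Groups came from the sample titles.

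From the deposited counts, edgeR 4.0.16 (R 4.3.3) was run over all genes that passed filterByExpr (minimum count 10), with TMM normalization and a robust quasi-likelihood fit of 2 against 2 libraries. P-values are two-sided and adjusted by Benjamini-Hochberg over 15718 genes. CPM values use TMM factors. No CPM floor matters for the members, since 3 counts equal at most 0.118 CPM. The code was tested on simulated data. Intervals are 95% and cover the spread between libraries.

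Symbols were matched by Ensembl identifier (55603 rows). Biotype, canonical transcript length and exon overlap came from GENCODE v44 on GRCh37, with no coordinates taken from it. Positions and promoters came from RefSeq (GRCh38.p14). MRPL2, MRPL10, MRPL13, MRPL15, MRPL21, MRPL23, MRPL35 and MRPS28 had no promoter entry.

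The members, the lists and the naming rule were chosen with earlier results of these data known, so no list was tested. Named were all called members, the 3 highest and lowest per kilobase, the MRPS18 paralogues, the stalk proteins, MRPL58, the member nearest 0, those next to the fold threshold and the called genes of each list. MRPL18, MRPL41, MRPS7, MRPS12, MRPS36, MRPL46, RPL12, MT-ND6 and the list genes given by adjusted p alone were added after their values were seen. So were the regulators, named for their motifs. Symbols of FASTKD4 and the endothelial marker PECAM1 were not matched, and PPARGC1A did not pass the filter. Alternatives were DESeq2 1.42.0, limma 3.58.1 on quantile-normalized log2 CPM, other scalings and filters, a replicate block and leaving out each library.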

Additional observations from a re-analysis of the deposited data

How the results depend on the processing

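The members' median log2 fold change stayed above 0 in every alternative run, 0.09 to 0.17, and no member was lower at an adjusted p under 0.05 in any of them. Scaling by library size alone gave medians of 0.092 (all members), 0.068 (large subunit) and 0.124 (small subunit), and moved the median of all genes to -0.04, so that the members stood 0.133 above it, as before. With no fold threshold 21 members were called higher, and at a fold of at least 2 the count was 0 (all genes: 498 higher and 502 lower). Leaving out 1 library gave 5 to 15 members called higher (6 without sgNPM1A replicate 1, 10 without sgNPM1A replicate 2). The members' median was then 0.128 to 0.172, 0.097 to 0.147 for the large subunit, and the lone library is assumed to vary like the others. DESeq2 called 8 members and limma 10, of which 8 and 9 were shared with the 9 of edgeR. Over all tested genes DESeq2 called 1263 higher and 1244 lower, and limma 1648 higher and 1607 lower. By their labels, same-numbered libraries share a number. The correlation of their deviations was -0.13 over all tested genes and -0.19 over the members. Over the 8856 genes with a mean above 10 CPM it was -0.52, so there libraries of unlike number deviated alike. With the replicate block 8 members were called (all genes: 1637 higher and 1604 lower), 8 of them shared, and 13 passed the adjusted p alone. Of the named members' calls only that of MRPS9 was lost (adjusted p = 0.0616). A block with crossed numbers, chosen after seeing the data, called 9 members, with 36 past the adjusted p alone (1955 genes higher and 1918 lower in all). Restricting to the 52 members with at most 10% shared exons, also chosen later, gave 8 called and a median of 0.166. An interval that includes 0 does not show that a member was equal.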

Other observations

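Genes that start head to head with a member were compared with it. By the RefSeq promoter starts, 18 of 70 members (25.7%) have a protein-coding gene on the opposite strand that starts within 1000 bases, against 10.29% of all protein-coding genes. All 18 partners were tested, 2 of them being the members MRPL46 and MRPS11, which face each other. Of the partners 1 was called higher, 0 lower and 17 neither (background 10.5% higher and 10.3% lower), and 9 had a fold change above 0. The median log2 fold change was 0.03 for the partners and 0.09 for their members. The called partner was ZNF189, next to MRPL50 (log2 fold change 0.44, adjusted p = 0.0048, edgeR), while MRPL50 itself had 0.06 (adjusted p = 0.626). Of the called members with a promoter entry, which MRPL2 lacks, MRPL51 alone has such a partner. It is NCAPD2, a condensin subunit that starts 840 bases away and went from a mean of 402.4 to 360.4 CPM (-0.16, adjusted p = 0.125). MRPL18, higher by adjusted p alone, faces TCP1, a subunit of the cytosolic chaperonin, at 210 bases (0.08, adjusted p = 0.448).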
